A study of Mus musculus with 12 samples.

Results

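The Spata and Tex genes were named one by one for their RNA in testis, as spermatogenesis associated and testis expressed, and their products share no single structure or function. The members described here were every reference transcript, or contig, of the mutant count table whose gene symbol began with Spata or Tex and a digit, with Spata6 left out. The rule used gene names and no measured value, although the families were picked with earlier results of these data known. It gave 121 contigs of 63 genes, of 12114 contigs of 7009 gene symbols in all. The Spata genes outside the Spata31 family had 49 contigs of 19 genes, the Spata31 family had 15 contigs of 12 genes, and the Tex genes had 57 contigs of 32 genes. Of the 121 contigs, 119 had enough reads to be tested. The other 2 were the only contig of Tex19.2, with 59 reads over all 12 libraries, and one of 5 Tex35 contigs, with 5.

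Transcripts were counted by nanopore direct RNA sequencing, in which a native poly(A) RNA molecule is read from its poly(A) end and gives 1 read. There were 4 groups of 3 libraries from testes of adult male mice. Round spermatids (RS) and elongated spermatids (ES) were sorted by flow cytometry on DNA staining with Hoechst, propidium iodide fluorescence and light scatter. They came from Tent5c wt/wt males or from Tent5c dcat/dcat males, whose TENT5C, a poly(A) polymerase that lengthens poly(A) tails, is catalytically inactive in every cell that makes it. Each library was a pool of RNA from 3 mice, so the spread given here is between pools. RS and ES were sorted from the same mice, and a mouse of each genotype was sorted in each session. Per the study's methods the dcat allele was kept on C57BL/6, and RNA was selected on oligo(dT) beads. The sorting gates were enriched for each stage and not pure.

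After meiosis, a round spermatid builds the acrosome over its nucleus and begins a flagellum, and then elongates while histones give way to protamines and the genome falls silent. Proteins of the late sperm, such as those of the mitochondrial sheath of the midpiece, are made largely from RNA that was transcribed earlier and stored. Spata and Tex products are found in many of these structures. Among them are SPATA16 in the forming acrosome, SPATA19 in sperm mitochondria, TEX14 in the bridges between germ cells, and TEX101 on the germ cell surface.

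Total counts ran from 337287 to 1359427 per library, with ES wt/wt replicate 3 the shallowest. Levels are CPM, read counts scaled to a common library size by TMM, which sets the bulk of contigs level between libraries. A floor of 3 counts then stood at 1.77 to 10.6 CPM. Tent5c RNA did not check the genotype labels, since the allele alters the protein, and among ES libraries wt/wt had a mean of 862 ± 46.3 CPM and dcat/dcat one of 990.5 ± 116 CPM (SD, n = 3). Of 9 contigs of elongated spermatid markers, 8 were higher in ES wt/wt than in RS wt/wt, and of 6 contigs of round spermatid markers 3 were lower. Somatic markers were also higher in ES. All 5 Leydig contigs and all 4 Sertoli contigs measured were called higher in ES wt/wt and in ES dcat/dcat. The summed Leydig level was 10.8 to 43.8 CPM in RS and 359 to 699 CPM in ES of wt/wt, and 11.8 to 28.0 and 213 to 773 CPM in dcat/dcat. The summed Sertoli level was 15.0 to 16.0 and 117 to 188 CPM in wt/wt, and 1.07 to 21.4 and 160.0 to 243 CPM in dcat/dcat. The markers Star and Hsd3b1 of Leydig cells, Sox9, Wt1, Amh and Rhox5 of Sertoli cells and all 4 macrophage markers listed were not analysed here. The part of these cells in the stage differences was not tested.

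The first comparison asked which Spata and Tex transcripts were higher or lower in elongated than in round spermatids, relative to the bulk of contigs. In wt/wt, 70 of the 119 tested contigs were higher in ES and 10 were lower by edgeR's quasi-likelihood test (Benjamini-Hochberg adjusted p, q, at or under 0.05 over all contigs). Among all 11831 contigs tested, 23.8% were higher and 16.5% were lower. In dcat/dcat, which shares sorting sessions but no library with wt/wt, 72 members were higher and 13 were lower, against 24% and 16.9% of all contigs. The members rose in 67 contigs and fell in 8 in both genotypes, none was called in opposite directions, and 29 passed in neither. Of all contigs tested, 21.7% rose in both, 11.4% fell in both and 51.8% passed in neither. Taken gene by gene, with the contig of most reads standing for each of 62 genes, 33 rose and 7 fell in wt/wt, and 33 rose and 10 fell in dcat/dcat. No such share was taken over all genes. With contigs summed by gene symbol instead, 35 of 62 rose and 8 fell in wt/wt, against 26.1% and 22.9% of all 7706 features. In dcat/dcat 37 rose and 10 fell in that fit, against 26.4% and 22.8%. In these bulk libraries, a change in the number of cells of a type and a change in RNA per cell cannot be told apart.

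The median log2 difference of ES over RS was 1.52 over the members and -0.24 over all contigs tested in wt/wt. The same medians were 1.57 and -0.18 in dcat/dcat. In wt/wt every ES library lay above every RS library for 73 members and below it for 12, where 25.9% and 27.3% of all contigs did so. In dcat/dcat the counts were 76 and 15, against 25.7% and 25.2% of all contigs. The members' share of all reads was 1.28% ± 0.0918 in RS and 1.72% ± 0.0117 in ES of wt/wt, and 1.31% ± 0.0700 and 1.72% ± 0.0436 in dcat/dcat (SD, n = 3). With libraries scaled by total counts only, the median of all contigs fell to -0.96 and -0.85, and those of the members to 0.81 and 0.90. The higher calls were then 68.5% of the members' calls in wt/wt in place of 87.5%, and 69.0% in place of 84.7% in dcat/dcat. Over all contigs that share went from 59.0% to 26.5% in wt/wt and from 58.7% to 28.2% in dcat/dcat. Differences between stages are therefore relative to the bulk of contigs.

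**Figure D1:**
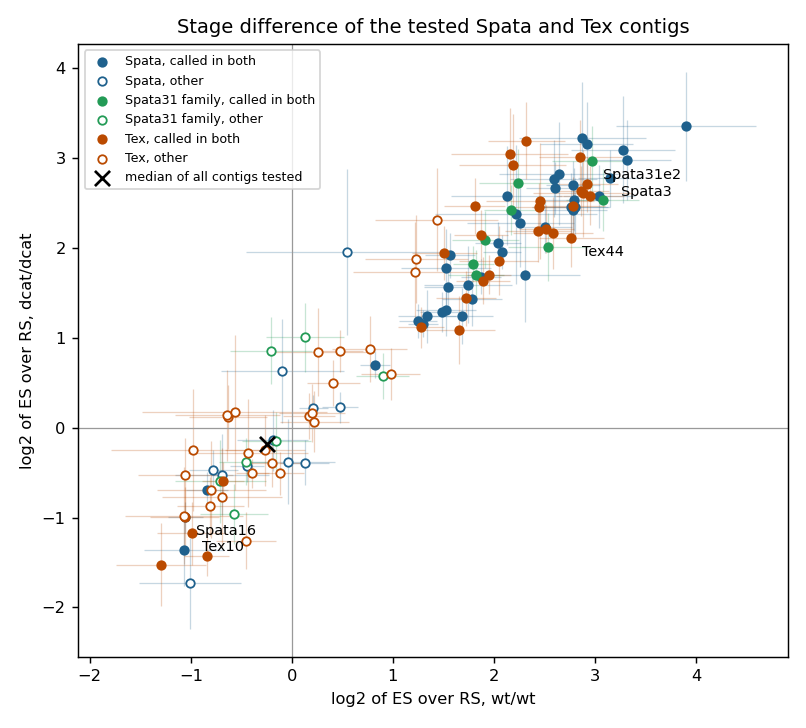
Each point is one of 119 tested contigs, with the log2 difference of ES over RS in wt/wt on the x axis and in dcat/dcat on the y axis and bars of 1 SE. Filled points were called in both genotypes, 67 at upper right and 8 at lower left, and the cross marks the median of all contigs tested, at -0.24 and -0.18.

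More of the risen than of the fallen contigs kept their call when single libraries were left out. Of the 70 higher calls in wt/wt, 65 stood in each fit that left out 1 library, as did 67 of the 72 in dcat/dcat. Of the lower calls, 1 of 10 stood throughout in wt/wt, that of Spata16, and 3 of 13 in dcat/dcat, those of Spata16, Tex9 ENSMUST00000184125 and Tex22 ENSMUST00000146107. The number lower in wt/wt was 4 without ES wt/wt replicate 1, 5 without replicate 2 and 5 without replicate 3. In dcat/dcat it was 7 without ES dcat/dcat replicate 2 and 5 without replicate 3. Each lower call kept its sign in these fits.

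**Figure D2:**
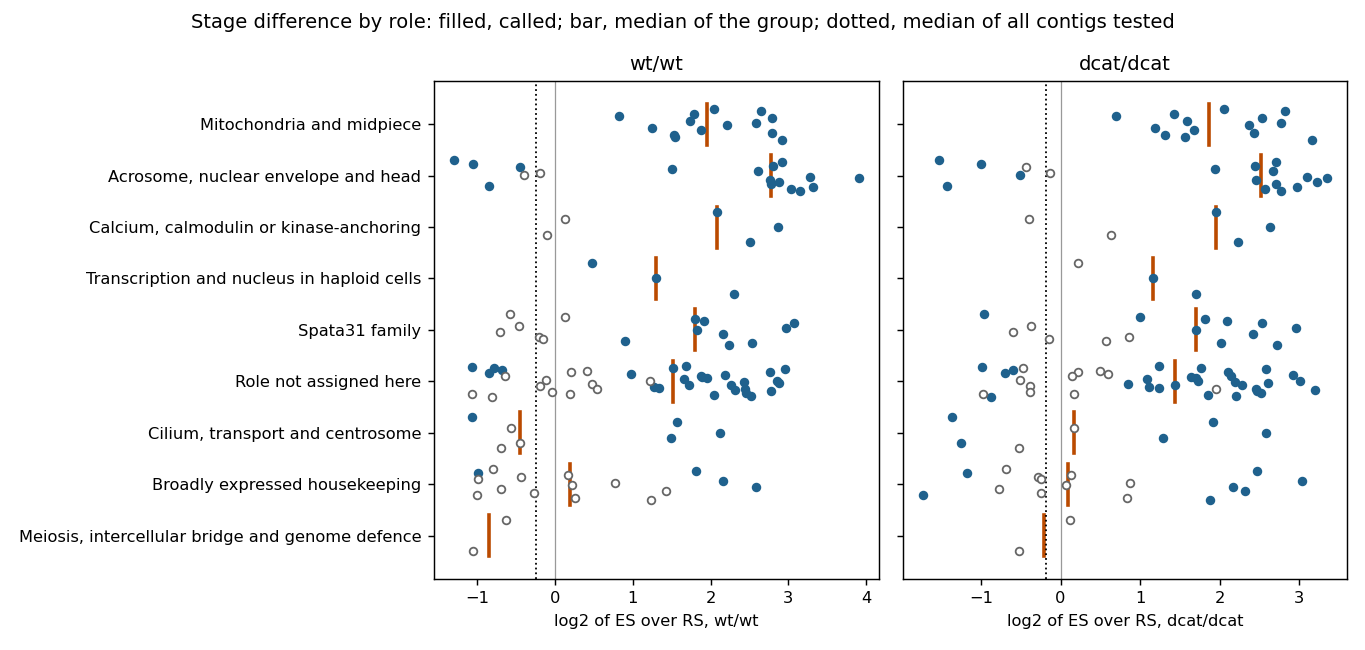
The log2 difference of ES over RS (x axis) is plotted for each tested contig by the role of its gene, in wt/wt on the left and dcat/dcat on the right. All 14 contigs of the mitochondria and midpiece group are filled in both panels. The acrosome, calcium, Spata31, unassigned, ciliary and broadly expressed groups lie on both sides of 0 in both panels. The meiotic group holds no call.

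Members with a role in sperm mitochondria and the midpiece were 14 contigs of 4 genes, Spata18, Spata19, Spata20 and Spata33. All 14 were higher in ES in both genotypes, against 21.7% of all contigs, with a median log2 difference of 1.96 in wt/wt and 1.87 in dcat/dcat. Contigs of 1 gene are not independent, and by gene this is 4 of 4 leading contigs. The group was put together with earlier results of these data known, so its count is a description and not a test. Spata18 (Mieap), which acts in mitochondrial quality control, stood at 103, 60.8 and 81.0 CPM in the RS libraries and 797, 348 and 565 CPM in the ES libraries of wt/wt for its leading contig ENSMUST00000071077. Every ES library was above every RS library, and replicate 2 was the lowest ES library in both genotypes. The log2 difference was 2.79 (SE 0.348, q 2.21e-05) in wt/wt and 2.54 (SE 0.346, q 5.21e-05) in dcat/dcat. Its other 2 contigs rose by 2.59 and 2.64 in wt/wt.

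Spata19, whose product sits in the mitochondrial sheath and is needed for male fertility, had 5 contigs, and all 5 rose. Its leading contig ENSMUST00000034473 read 243, 369 and 476 CPM in RS and 1441, 1668 and 1367 CPM in ES of wt/wt, and the difference was 2.04 (SE 0.228, q 8.59e-06). In dcat/dcat it read 272, 362 and 419 CPM in RS and 1593, 1520.5 and 1283 CPM in ES, with a difference of 2.06 (SE 0.228, q 1.02e-05). The stages were well apart, and the lowest ES library was 1283 CPM against 476 CPM in the highest RS library. The largest rise among its contigs, 2.92 in wt/wt and 3.16 in dcat/dcat, was that of ENSMUST00000215326, which keeps an intron.

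Spata33, which holds the phosphatase calcineurin at sperm mitochondria through VDAC2, rose less. Its leading contig ENSMUST00000060133 stood at 1006, 1076 and 1235 CPM in RS and 1956, 2153 and 1737 CPM in ES of wt/wt. The libraries did not overlap, and the log2 difference was 0.82 (SE 0.149, q 0.000543) in wt/wt and 0.70 (SE 0.149, q 0.0017) in dcat/dcat. Scaled by total counts it was 0.10 and 0.02 and no longer passed (q 0.462 and 0.869). The 3 smaller Spata33 contigs rose by 1.25 to 2.22 in wt/wt. Spata20, a thioredoxin-like protein, went from 369, 182 and 257 CPM to 1189.5, 645 and 960.5 CPM in wt/wt, without overlap, a difference of 1.78 (SE 0.296, q 0.000259).

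The genes of the acrosome, the nuclear envelope and the sperm head split into risers and fallers. Of their 18 contigs, 12 rose and 4 fell in each genotype, which is 66.7% and 22.2%. Among all contigs tested, wt/wt libraries gave 23.8% higher and 16.5% lower, and dcat/dcat libraries gave 24% and 16.9%. By leading contig, 4 of 7 genes rose and 2 fell in each genotype. The fallen contigs are few and share genes, so they cannot show that falling is a trait of this group. The 9 contigs of Spata3 all rose, by 2.76 to 3.90 in wt/wt and by 2.45 to 3.36 in dcat/dcat. Its leading contig ENSMUST00000159876 (chromosome 1 from 86021960 to 86029262 on the plus strand, GRCm38) had the largest rise among the leading contigs in wt/wt. It read 55.7, 62.0 and 86.3 CPM in RS and 813, 472 and 537 CPM in ES of wt/wt, and the difference was 3.15 (SE 0.319, q 3.95e-06). In dcat/dcat it read 69.5, 61.6 and 77.5 CPM and 739.6, 387 and 314 CPM, a difference of 2.78 (SE 0.319, q 1.31e-05). The ES libraries were all well above the RS libraries, and replicate 1 was the highest of the ES libraries in both genotypes.

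Spata32, a protein of the acrosome, rose from 66.7 ± 20.3 to 407 ± 95.7 CPM in wt/wt and from 64.9 ± 15.5 to 415 ± 105 CPM in dcat/dcat (SD, n = 3), by 2.61 (SE 0.285, q 7.16e-06) and 2.67 (SE 0.288, q 8.57e-06) on the log2 scale. Tex46 rose from 16.6, 27.4 and 34.3 CPM in RS wt/wt to 224, 209 and 166 CPM in ES wt/wt, by 2.92 (SE 0.309, q 5.32e-06). Tex101, a surface glycoprotein that helps ADAM3 mature, rose by 1.51 (SE 0.323, q 0.00187) in wt/wt and 1.94 (SE 0.304, q 0.000163) in dcat/dcat, on 17, 6 and 20 reads in RS and 16, 18 and 8 in ES of wt/wt.

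Spata16, which is needed to form the acrosome and is mutated in some men with round-headed sperm, went the other way. Its leading contig ENSMUST00000047005 (chromosome 3 from 26637620 to 26983212 on the plus strand, GRCm38) stood at 267, 262 and 261 CPM in RS and 106, 141 and 134 CPM in ES of wt/wt. In dcat/dcat the levels were 333, 262 and 293 CPM and 139, 149.8 and 155 CPM. Every ES library lay below every RS library in both genotypes. The log2 difference was -1.05 (SE 0.175, q 0.00026) in wt/wt and -1.0 (SE 0.172, q 0.000358) in dcat/dcat. Of the 3 contigs of Tex22, an acrosome-associated gene, 2 fell in wt/wt and 3 in dcat/dcat. The largest of those differences was -1.52 (SE 0.460, q 0.0161), that of ENSMUST00000012355 in dcat/dcat. Spata46, a nuclear envelope protein of the sperm head, fell in wt/wt, with a difference of -0.44 (SE 0.169, q 0.0488), a call that stood in 2 of the 12 fits without 1 library. In dcat/dcat its difference was -0.43 (SE 0.170, q 0.0551), with no overlap of libraries.

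The genes Spata17, Spata21 and Tex55 bind calcium, calmodulin or a kinase. Of their 5 contigs, 3 rose in both genotypes, where 21.7% of all contigs did so. Spata21, with an EF-hand, stood at 235, 284 and 341 CPM in RS and 1217, 1316 and 1098 CPM in ES of wt/wt, without overlap, and rose by 2.08 (SE 0.190, q 2.18e-06) in wt/wt and 1.95 (SE 0.190, q 4.35e-06) in dcat/dcat. Tex55, which binds a regulatory subunit of protein kinase A, went from 24.0 ± 9.98 CPM (SD, n = 3) to 199, 204 and 134 CPM in wt/wt, without overlap, a rise of 2.86 (SE 0.278, q 2.94e-06). In dcat/dcat it went from 23.5, 27.5 and 31.3 CPM to 162, 179.8 and 176 CPM, a rise of 2.64 (SE 0.279, q 7.42e-06).

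Spata17, a protein with calmodulin-binding IQ motifs, was the member gene with a call of contig usage in both genotypes. The short contig ENSMUST00000184543 rose, while the contig with the most reads, ENSMUST00000110945, did not pass. The short contig read 10.8, 20.3 and 20.1 CPM in RS and 112, 93.2 and 84.7 CPM in ES of wt/wt, a difference of 2.50 (SE 0.274, q 7.22e-06). In dcat/dcat it read 12.8, 13.1 and 16.5 CPM and 62.6, 74.9 and 65.8 CPM, a difference of 2.23 (SE 0.289, q 3.43e-05). The stages did not overlap. The long contig read 47.4, 48.9 and 57.4 CPM in RS and 57.0, 49.5 and 63.6 CPM in ES of wt/wt, a difference of 0.13 (SE 0.243, q 0.755), and its difference in dcat/dcat was -0.39 (SE 0.249, q 0.224).

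As a share of Spata17 reads, the short contig took 15.3%, 25.8% and 23.6% in the RS libraries and 60.2%, 62.0% and 57.1% in the ES libraries of wt/wt. In dcat/dcat the shares were 14.5%, 18.5% and 23.3% and 50%, 54.5% and 61.9%. Every ES share was above every RS share. The long contig took 65.5% ± 2.94 in RS and 35.5% ± 6.48 in ES of wt/wt (SD, n = 3), and the third contig, ENSMUST00000183819, held the rest. These shares rest on few reads, 53, 49 and 24 for the short contig in ES wt/wt. A test of each contig against the other contigs of its gene (edgeR diffSpliceDGE, Benjamini-Hochberg over 6722 contigs) called the short contig in both genotypes, with a relative log2 difference of 1.01 (q 0.0201) in wt/wt and 1.08 (q 0.0207) in dcat/dcat. The call in wt/wt was lost without any 1 of the 6 wt/wt libraries (q 0.0597 to 0.197). The call in dcat/dcat was lost without RS dcat/dcat replicate 1 or 2 or ES dcat/dcat replicate 2 or 3 (q 0.0849 to 0.188). The relative difference lay between 0.83 and 1.22 over the 12 fits in each genotype that left out 1 library.

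**Figure D3:**
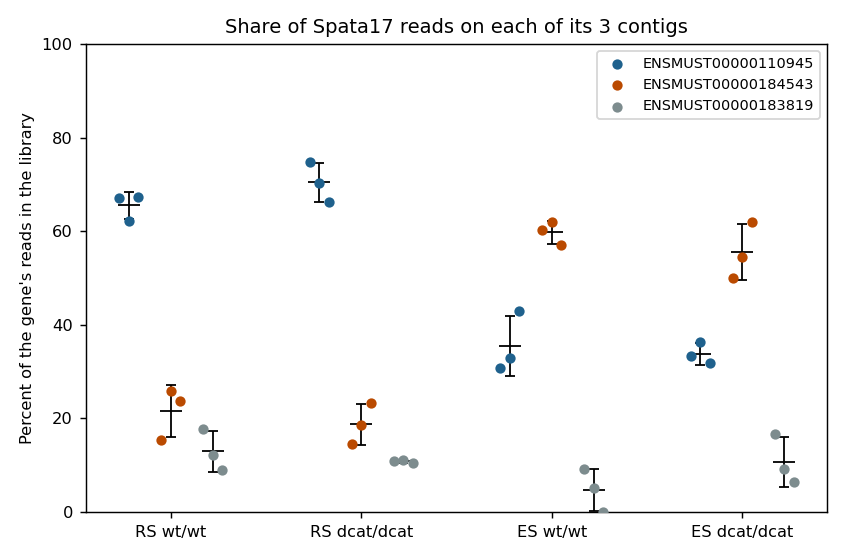
Share of the Spata17 reads of each library (y axis, percent) on each of its 3 contigs, by group. Points are libraries, with the mean and SD of 3. The short contig ENSMUST00000184543 takes 15.3 to 25.8% in the RS libraries and 57.1 to 62.0% in the ES libraries of wt/wt.

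The 2 contigs share their 3′ part. In the GENCODE annotation of GRCm38, the short contig starts at an exon of its own, chr1:187142827-187143097 on the minus strand, and its other 2 exons lie within the last 2 exons of the long contig, which starts at chr1:187215421. Of the 667 bases of the short contig, 396 (59.4%) are thus also in the long one. Reads begin at the poly(A) end, and how reads that stop within the shared part were assigned was not tested. The annotated reading frames end differently, as the sequences show, which are printed to make the contrast visible. The first run is the whole reading frame of the short contig, and the second is the end of that of the long contig from its sixth exon on. Lower case marks bases of the shared exon chr1:187140373-187140496, and capitals mark those of the last exon, from which each contig takes a different start.

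ENSMUST00000184543, chr1:187135541-187140471: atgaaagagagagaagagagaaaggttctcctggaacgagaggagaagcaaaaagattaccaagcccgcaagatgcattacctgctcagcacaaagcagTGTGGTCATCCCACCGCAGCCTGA
ENSMUST00000110945, chr1:187135623-187140496: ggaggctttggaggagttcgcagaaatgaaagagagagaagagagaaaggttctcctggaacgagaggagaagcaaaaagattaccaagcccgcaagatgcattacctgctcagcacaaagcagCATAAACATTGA

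The 250 bases before the first exon of the short contig follow, on the minus strand of GRCm38, to show where a separate start would lie. They held neither motif searched for below.

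Before ENSMUST00000184543, chr1:187143098-187143347: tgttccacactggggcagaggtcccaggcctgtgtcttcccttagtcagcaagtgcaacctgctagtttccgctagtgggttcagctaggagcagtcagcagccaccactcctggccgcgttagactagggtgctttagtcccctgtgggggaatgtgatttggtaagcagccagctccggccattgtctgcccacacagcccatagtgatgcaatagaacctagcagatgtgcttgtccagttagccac

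Contig usage was called for few other members. In wt/wt, 1 of 89 member contigs in genes with several contigs was called, that of Spata17, against 1.2% of all 6722 contigs. In dcat/dcat there were 2 of 89, against 1.07%, the other being Tex30 ENSMUST00000150911. This contig took 18.6% ± 3.03 of Tex30 reads in RS dcat/dcat and 5.19% ± 1.68 in ES dcat/dcat, with a relative difference of -1.25 (q 0.0359). In wt/wt its share was 17.0% ± 2.28 and 5.59% ± 2.36, and its q was 0.0841. The Tex30 call was lost without RS wt/wt replicate 2, ES wt/wt replicate 3, any RS dcat/dcat library or ES dcat/dcat replicate 2 or 3. With the replicate number as a block, 12 of 89 member contigs were called in wt/wt, where 4.05% of all 6722 contigs were, and 10 in dcat/dcat, against 4.92%. The 10 belonged to Spata17, Tex30, Spata33, Spata24, Tex2, Spata19, Tex26 and Tex53.

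Spata24, a nuclear partner of the TATA-binding protein relative TBPL1, rose in wt/wt on all 3 of its contigs. Its leading contig ENSMUST00000096573 read 641, 717 and 780.0 CPM in RS and 1908, 1771 and 1582 CPM in ES of wt/wt, without overlap. The difference was 1.30 (SE 0.151, q 1.24e-05) in wt/wt and 1.16 (SE 0.151, q 3.64e-05) in dcat/dcat. The contig ENSMUST00000025209 rose by 0.48 (SE 0.175, q 0.0421) in wt/wt, a call that stood in 6 of the 12 fits without 1 library and turned to -0.24 with total counts only.

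The Spata31 genes are a family of related genes that arose by duplication and are expressed in the testis. Of their 15 contigs, 9 rose (60%) and 0 fell in wt/wt, against 23.8% and 16.5% of all contigs. In dcat/dcat 9 rose (60%) and 1 fell (6.67%), against 24% and 16.9%. The 8 contigs that rose in both genotypes were those of Spata31e2 and Spata31e5 on chromosome 1, Spata31d1a (2 contigs), Spata31d1b and Spata31e1 on chromosome 13, and Spata31f3 (2 contigs) on chromosome 4. Genes close to some of them were not called in both genotypes, namely Spata31d1d and Spata31d1e beside Spata31d1a and Spata31d1b on chromosome 13, and Spata31f1a and Spata31g1 near Spata31f3 on chromosome 4.

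Spata31e2 rose most among their leading contigs, from 4, 3 and 7 reads in RS wt/wt to 16, 15 and 8 in ES wt/wt. The level went from 3.68 ± 0.418 to 30.2 ± 3.13 CPM (SD, n = 3), by 2.97 (SE 0.396, q 4.12e-05), and in dcat/dcat by 2.97 (SE 0.397, q 4.5e-05). Spata31e1 rose by 2.53 (SE 0.392, q 0.000146) in wt/wt and 2.01 (SE 0.381, q 0.000748) in dcat/dcat. Spata31f3, with more reads, stood at 104, 102 and 138 CPM in RS and 479.6, 363 and 357 CPM in ES of wt/wt, a rise of 1.80 (SE 0.203, q 9.44e-06). Spata31 read 74.8, 46.5 and 59.7 CPM and 46.5, 38.0 and 49.4 CPM in wt/wt, which overlapped, and its difference was -0.46 (SE 0.268, q 0.189). The contig of Spata31f1a is 98.9% identical over its whole length to a transcript of Fam205a4, so its counts are uncertain.

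Among genes of cilia and the centrosome, the members went different ways. All 3 contigs of Spata7, a protein of the photoreceptor cilium, rose in both genotypes, by 1.49 to 2.13 in wt/wt. Its leading contig read 93.1, 91.8 and 131 CPM in RS and 368, 253 and 268 CPM in ES of wt/wt. Spata1, a partner of the transport protein IFT20, fell on 1 of 2 contigs, with differences of -1.07 (SE 0.395, q 0.0434) in wt/wt, where RS and ES libraries overlapped, and -1.37 (SE 0.399, q 0.0132) in dcat/dcat. The wt/wt call was lost without RS wt/wt replicate 1, RS dcat/dcat replicate 2, ES wt/wt replicate 2 or 3 or ES dcat/dcat replicate 2 or 3. The contig that fell held 81.3%, 44.5% and 38.7% of Spata1 reads in RS wt/wt and 72.3%, 34.3% and 33.3% in ES wt/wt. Replicate 1 had the highest share in both dcat/dcat groups too. Tex9, a protein of centriolar satellites, had a difference of -0.45 (SE 0.294, q 0.234) in wt/wt and fell by 1.26 (SE 0.318, q 0.00566) in dcat/dcat. The interaction between stage and genotype did not pass for it (q 1).

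Members expressed in many tissues had 16 contigs. Of these, 3 rose and 1 fell in wt/wt (18.8% and 6.25%, against 23.8% and 16.5% of all contigs). In dcat/dcat 5 rose and 2 fell (31.2% and 12.5%, against 24% and 16.9%). The medians were 0.20 in wt/wt and 0.10 in dcat/dcat. The 3 that rose in wt/wt were all of Tex30, whose leading contig ENSMUST00000152239 went from 25.8, 16.7 and 36.7 CPM in RS wt/wt to 247, 108 and 134 CPM in ES wt/wt, by 2.59 (SE 0.396, q 0.000134). Tex10, a subunit of a nuclear complex of ribosome synthesis, fell from 112, 82.2 and 73.9 CPM in RS wt/wt to 57.0, 32.3 and 45.9 CPM in ES wt/wt, a difference of -0.99 (SE 0.345, q 0.0326), and in dcat/dcat one of -1.18 (SE 0.349, q 0.0145). Its libraries did not overlap, but the call in wt/wt was lost without RS wt/wt replicate 1 or ES wt/wt replicate 2 or 3 (-0.70 to -0.98, q 0.0806 to 0.215), and by DESeq2 with all libraries (-0.96, adjusted p 0.0514). In dcat/dcat it was lost without RS dcat/dcat replicate 1 or ES dcat/dcat replicate 2 or 3 (-0.72 to -1.08, q 0.0596 to 0.0869). Tex2, Tex261 and Tex264, which act at the endoplasmic reticulum, had leading contigs between -0.80 and 0.17 in wt/wt, and none of these 3 passed.

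Of the members that act in meiosis, the bridges between germ cells or genome defence, 2 could be tested, and neither passed. Tex14, needed for the bridges, had 24, 21 and 44 reads in RS and 7, 8 and 0 in ES of wt/wt, a difference of -1.05 (SE 0.471, q 0.0879). Tex15, which silences transposons in germ cells, had a difference of -0.63 (SE 0.382, q 0.202). Of the meiotic spermatocyte markers, 3 of 10 contigs fell in wt/wt and 1 in dcat/dcat (30% and 10%, against 16.5% and 16.9% of all contigs). Tex11, Tex12 and Spata22 were not analysed here.

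For 24 genes no role was assigned, and 23 of their 39 tested contigs rose and 4 fell in wt/wt, with a median of 1.52. These are 59.0% and 10.3%, against 23.8% and 16.5% of all contigs. Tex35, Tex50, Tex44 and Tex53 belonged to the 12 genes with the largest rise. Tex35 ENSMUST00000027884 went from 27.4, 46.5 and 43.2 CPM in RS wt/wt to 401, 253 and 247 CPM in ES wt/wt, by 2.95 (SE 0.332, q 9.21e-06). Tex44 went from 12.5, 26.2 and 25.4 CPM to 171, 116 and 152 CPM, by 2.77 (SE 0.324, q 1.29e-05) in wt/wt and 2.11 (SE 0.323, q 0.00014) in dcat/dcat. The libraries of the stages did not overlap for either gene. Tex50 rose by 2.88 (SE 0.490, q 0.000324) and Tex53 by 2.52 (SE 0.269, q 5.91e-06) in wt/wt.

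Among the others with no assigned role, contigs of Spata25, Spata6l, Tex13a, Tex13c1, Tex13c3, Tex26, Tex29, Tex48, Tex52, Tex54 and Tex56 rose in both genotypes and contigs of Tex21 fell in both. No contig of Spata9, Tex24, Tex38, Tex47 and Tex51 was called the same way in both. The counts of Tex13c3 and Tex24 are uncertain, since parts of their contigs are 95.9% and 96.6% identical to transcripts of Gm40 and Gm6853.

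Spata45 and Tex36, with no assigned role, fell in both genotypes. Spata45 stood at 197, 256 and 268 CPM in RS and 118, 167 and 113 CPM in ES of wt/wt, and fell by 0.84 (SE 0.207, q 0.00485). Tex36 stood at 262, 266 and 267 CPM in RS and 146, 186 and 162 CPM in ES of wt/wt, and fell by 0.68 (SE 0.211, q 0.0185). Neither overlapped between stages. The Spata45 call was lost without ES wt/wt replicate 1 (-0.66, q 0.0514) or, in dcat/dcat, without ES dcat/dcat replicate 1 or 3 (q 0.0527 to 0.06). The Tex36 call was lost without ES wt/wt replicate 1 or 3 (-0.51 to -0.64, q 0.0597 to 0.135). In dcat/dcat, leaving out RS dcat/dcat replicate 2 or ES dcat/dcat replicate 1 or 3 removed it (q 0.119 to 0.17), as did a fit of the dcat/dcat libraries alone (-0.58, adjusted p 0.0783).

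Spata4 had the most reads of any single member contig, 14376, and did not pass. It stood at 1359, 1345 and 1554 CPM in RS and 1724, 1817 and 1391 CPM in ES of wt/wt, which overlapped, while the dcat/dcat libraries did not, and the difference was 0.21 (SE 0.142, q 0.245) in wt/wt and 0.22 (SE 0.142, q 0.236) in dcat/dcat. With total counts only it turned to -0.51 (q 0.00224) and -0.46 (q 0.0043). Of the 6 genes with the most reads over all their contigs, Spata33, Spata24, Spata19, Spata20 and Spata3 rose in both genotypes and Spata4 did not pass in either.

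Of 32 member genes with 2 or more tested contigs, 12 had all of them called higher in both genotypes, and 0 had contigs called in opposite directions in either genotype. Over the member genes, 35 had a contig that rose in both genotypes, 7 had one that fell in both, and 11 had no call at all. Such shares were not taken over all genes, so these counts cannot show a trait of the members. Few member contigs were called lower, 10 in wt/wt and 13 in dcat/dcat. The members were shorter than the contigs tested as a whole, with a median length of 1267 bases and 5 exons against 2189 bases and 8 exons. Those that rose in both genotypes had a median of 1047 bases, and those that passed in neither one of 1807. Over all contigs that rose in both genotypes the median was 1745 bases. These are descriptions and were not tested.

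The promoters of the members were searched for TGACGTCA, the cyclic AMP response element through which CREM activates haploid germ cell genes, and for its shorter form TGACG, which lies within it, on both strands, so that each full match also counts as a short one. RefSeq promoters (250 bases before to 50 after a gene's start, GRCm38.p6) were matched for 53 of the 63 genes. The full element was found in 1 of 53 (1.89%), against 1.79% of all 32851 promoters. The short form was found in 9 of 53 (17.0%), against 20.8% of all. By the leading contig's direction in both genotypes, 6 of 29 promoters of risen genes (20.7%) and 2 of 5 of fallen genes (40%) held the short form. Of the other genes it was 1 of 19 (5.26%). The share among risen genes was thus near the 20.8% of all promoters. The promoters with the full element (Spata7) and with the short form in 3 other risen genes, among them the acrosomal Spata32 and the mitochondrial Spata18, are shown, with the matches in capitals.

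Spata7, chr12:98627892-98628191 (+ strand): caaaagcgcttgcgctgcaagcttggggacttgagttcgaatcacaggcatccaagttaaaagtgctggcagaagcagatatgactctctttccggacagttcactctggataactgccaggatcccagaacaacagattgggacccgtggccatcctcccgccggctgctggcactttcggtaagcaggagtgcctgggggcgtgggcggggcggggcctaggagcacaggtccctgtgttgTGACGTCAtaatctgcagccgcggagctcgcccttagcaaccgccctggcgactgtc
Spata18, chr5:73651130-73651429 (+ strand): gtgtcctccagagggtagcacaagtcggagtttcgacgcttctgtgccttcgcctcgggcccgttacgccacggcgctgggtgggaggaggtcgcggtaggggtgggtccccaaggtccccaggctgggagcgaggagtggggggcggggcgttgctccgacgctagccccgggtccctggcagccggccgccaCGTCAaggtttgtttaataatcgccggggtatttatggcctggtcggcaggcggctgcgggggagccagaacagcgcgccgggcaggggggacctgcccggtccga
Spata32, chr11:103218383-103218682 (- strand): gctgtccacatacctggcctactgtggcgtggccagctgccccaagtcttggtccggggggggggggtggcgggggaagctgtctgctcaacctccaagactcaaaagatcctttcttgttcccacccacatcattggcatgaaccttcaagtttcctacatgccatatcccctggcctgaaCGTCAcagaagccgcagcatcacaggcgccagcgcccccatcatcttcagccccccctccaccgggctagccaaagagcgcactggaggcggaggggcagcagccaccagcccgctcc
Tex50, chr1:161159265-161159564 (- strand): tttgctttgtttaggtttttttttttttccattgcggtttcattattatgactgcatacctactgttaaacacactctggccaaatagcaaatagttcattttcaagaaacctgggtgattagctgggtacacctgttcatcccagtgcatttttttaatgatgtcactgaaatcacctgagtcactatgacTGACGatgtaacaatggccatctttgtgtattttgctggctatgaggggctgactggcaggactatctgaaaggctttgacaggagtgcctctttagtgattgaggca

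The full element of Spata7 begins 7 bases before the annotated start of its gene, and the short forms of Spata18, Spata32 and Tex50 begin 56, 68 and 58 bases before it. A match is a string of letters and not a measured site. The leading contigs of these genes rose by 1.49, 2.79, 2.61 and 2.88 in wt/wt.

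Of 43 tested contigs of 25 partner genes, whose products work with those of members, 11 rose and 10 fell in wt/wt (25.6% and 23.3%, against 23.8% and 16.5% of all contigs). In dcat/dcat 13 rose and 10 fell (30.2% and 23.3%, against 24% and 16.9%). The median differences were -0.15 and 0.25. Prkar2a, the kinase subunit, and Akap4, its anchor in the fibrous sheath, which were listed with Tex55, rose by 2.93 and 3.16 in wt/wt. Ace, Adam3 and Ly6k, which were listed with Tex101, rose by 1.86, 0.95 and 0.63. Partners of other risen members fell. Vdac2 and Ppp3r2, listed with Spata33, had differences of -1.26 and -0.52, and Tbpl1, listed with Spata24, one of -1.65. Dpy19l2, which like Spata16 is needed for the acrosome, had a difference of -0.89, and Wdr18 and Pelp1 of the Tex10 complex had differences of -0.96 and -1.88. Each of these passed in both genotypes. Cep55, Meiob, Las1l, Gopc and Cyld were not analysed here.

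The second question was whether loss of TENT5C catalytic activity changed these transcripts. No member was called between dcat/dcat and wt/wt by edgeR's quasi-likelihood test, in RS or in ES, and no contig of the whole table was (0% in each). At an unadjusted p under 0.05 there was 1 of 119 members in RS, against 0.828% of all contigs, and 5 in ES, against 3.01%. DESeq2 called 0 members in either stage. The log2 differences of dcat/dcat over wt/wt had a median of 0.08 in RS, with a range of -1.04 to 1.11, and a median of 0.02 in ES, with a range of -0.83 to 1.11. No interaction between stage and genotype was called either, among members or in the whole table (0%), and 0 members had an unadjusted p under 0.05 for it, against 1.44% of all contigs. These comparisons share their libraries with those between stages.

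**Figure D4:**
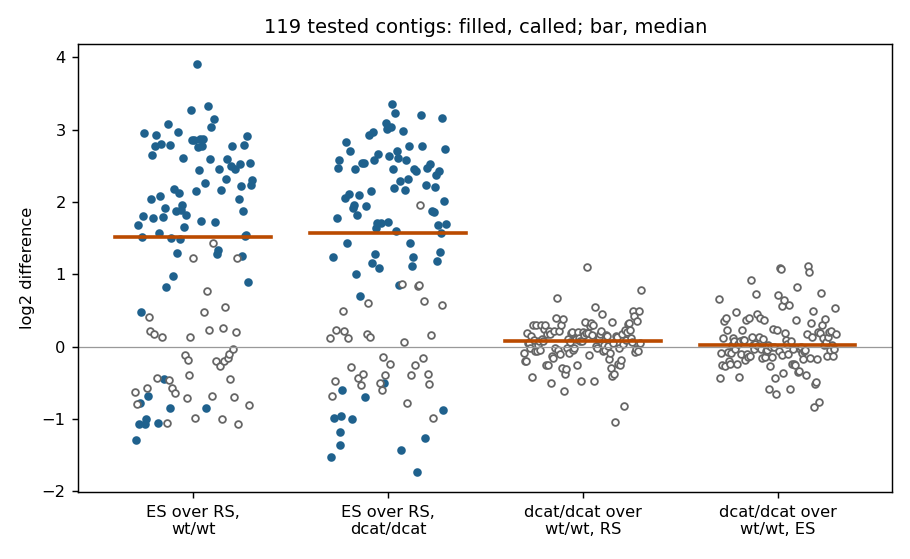
Log2 differences of the 119 tested contigs (y axis) in the 4 comparisons between 2 groups, with called contigs filled and the median as a bar. The medians between stages are 1.52 and 1.57, and those between genotypes 0.08 and 0.02, with no contig called.

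The smallest p of a member contig between genotypes in RS belonged to Tex50 ENSMUST00000178511, at -1.04 (SE 0.453, unadjusted p 0.037), Tex53 ENSMUST00000136620, at -0.47 (SE 0.221, unadjusted p 0.0504), and Spata31d1a ENSMUST00000066510, at 0.67 (SE 0.401, unadjusted p 0.114). The Tex50 contig had 9, 15 and 26 reads in the RS libraries of wt/wt, against 2, 6 and 11 for dcat/dcat. The smallest p in ES belonged to Spata31h1 ENSMUST00000171401, at 1.11 (SE 0.414, unadjusted p 0.0174), Tex22 ENSMUST00000146107, at -0.58 (SE 0.239, unadjusted p 0.0291), and Tex101, at 0.73 (SE 0.303, unadjusted p 0.03). Tex101 read 33.8, 34.2 and 28.2 CPM in ES wt/wt and 64.9, 42.4 and 54.0 CPM in ES dcat/dcat, which did not overlap. Spata31h1, Tex22 and Tex9 ENSMUST00000184125 also had the smallest p for the interaction, 0.0719, 0.0863 and 0.0864. For well-read contigs the SE of the difference in ES was 0.148 for Spata33 and 0.293 for Spata3, on the log2 scale.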

How the data were processed

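Direct RNA sequencing of 12 libraries (4 groups of 3 pools) was compared. The counts were deposited by the authors as whole reads per GENCODE transcript (GRCm38), from reads aligned with minimap2 (2.20-r1061, per the labels) after the authors' own removal of low contigs. Near-identical transcripts can split or share reads, and a truncated read can be assigned to a shorter transcript. For Spata1, Spata20 and Tex10 the leading contig held its highest share of the gene's reads in replicate 1 in all 4 groups. Levels of single contigs carry this difference between replicates, and its reason was not tested. The authors' deposited DESeq2 tables hold fold changes and p-values, of which none was used. They gave gene symbols only.

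All 12 libraries were fitted together in edgeR (4.0.16, R 4.3.3, limma 3.58.1) by quasi-likelihood with TMM scaling and 4 group means. A contig was tested if 2 or more libraries of one group held 10 or more reads of it (11831 of 12114), with Benjamini-Hochberg adjustment over all of them and calls at an adjusted p of 0.05. Scripts were tested on simulated data. Alternatives were total counts, RLE, DESeq2 (1.42.0), other filters, fewer libraries, a replicate block, counts summed by gene and each library left out.

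Genes were named through their contig with the most reads: the 12 largest rises and falls in wt/wt among contigs called in both genotypes without overlap (4 falls qualified), the 6 with the most reads, genes with usage calls in both genotypes, and the 3 smallest p for each genotype test and the interaction. Role groups, partner genes, markers and the members themselves were chosen with earlier results of these data known. Per the study's reporting summary, RS and ES came from the same mice and each sorting session held a mouse of each genotype, so libraries of different groups are not independent. Which mice each numbered pool held is not given in the sources used here, so the block stayed an alternative. Deviations of same-numbered libraries from their group means correlated over 0.1 in every pair for RS wt/wt with RS dcat/dcat (0.385 to 0.696). The same held for RS dcat/dcat with ES dcat/dcat (0.252 to 0.519) and RS wt/wt with ES dcat/dcat (0.191 to 0.464). For ES wt/wt, replicates 1 and 2 gave 0.403 and 0.363 with RS wt/wt, and 0.427 and 0.328 with RS dcat/dcat. With ES dcat/dcat they gave 0.454 and 0.306. Replicate 3 of ES wt/wt, the shallowest library, gave -0.0945, -0.0521 and 0.0336 with these groups in the same order. p-values measure the spread between pools. Counting limits cover counting error only.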

Additional observations from a re-analysis of the deposited data

How the results depend on the processing

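Of 775 alternative values for named members, 745 stayed on the same side of the threshold, 28 no longer passed and 2 changed sign and passed. Any change of sign with no call in either fit was counted among the 745. The 2 were both those of Spata4 under total counts only (-0.51 in wt/wt and -0.46 in dcat/dcat). With total counts only, members lower in ES numbered 29 in wt/wt and 27 in dcat/dcat, of 119, while 45.7% and 42.2% of all contigs were lower. With at least 10 reads required in every library, 64 members were tested and 43 were higher in each genotype (33.4% and 33.5% of all contigs). The wt/wt usage calls then numbered 5 of 38 member contigs, against 3.89% of all 1415. With contigs summed by gene, 8 of 62 members were lower in wt/wt (12.9%), against 22.9% of all 7706 features. Both of these settings test fewer features. The other causes were not tested. Leaving out 1 library gave 64 to 72 higher and 4 to 10 lower members in wt/wt, 64 to 74 higher and 5 to 13 lower in dcat/dcat, 0 to 2 usage calls in each, and 0 calls between genotypes and for the interaction. With the replicate block, usage calls were 12 in wt/wt and 10 in dcat/dcat (of all contigs 4.05% and 4.92%), members higher were 72 and 77 (27.2% and 28.0%) and lower were 15 and 17 (24.4% and 23.9%), and no member was called between genotypes. Unadjusted p under 0.05 was then found for 3 members in RS and 11 in ES. The share over all contigs was not taken for this setting, so these counts cannot show an excess among members. At 3 counts the floor reached 10.6 CPM in the shallowest library, so that low members such as Tex51 in ES wt/wt were near it.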
